A study of Mus musculus with 10 samples.

Results

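The sterol regulatory element binding protein (SREBP) genes described here are 33 mouse genes for cholesterol synthesis, sterol transport, SREBP regulation and fatty acid synthesis, taken by gene symbol from a deposited count table of 52636 genes. They divide by textbook role into 18 sterol synthesis enzymes (7 up to farnesyl diphosphate and 11 from squalene to cholesterol), 2 sterol transport genes, 5 regulators and 8 fatty acid enzymes. All 33 were found in the table and all 33 passed the filter on low counts that left 15916 genes. The cells come from DIN, a mouse model of acute myeloid leukaemia in which fetal liver cells received 3 MSCV retroviral vectors carrying DNMT3A R882H, IDH2 R140Q and NRAS G12D. Transduced cells went into sub-lethally irradiated female Ptprca mice, and frozen cells of sick animals were then given to further Ptprca mice. Progenitors that were cKit+ and Cd11b- were sorted from marrow and spleen and sequenced as polyA RNA from the 3′ end of transcripts. Every group carries all 3 vectors. The 2 "on" groups ate normal chow and kept DNMT3A R882H expression, whereas the 2 "off" groups had doxycycline in chow and water, which turns off the DNMT3A R882H vector alone. The labels put 4 libraries in day 14 off and 2 libraries each in day 14 on, day 5 off and day 5 on, where the day counts time on the diet. No group received doxycycline without the controlled vector, so an effect of the drug and an effect of the vector cannot be told apart. The labels do not say which libraries hold marrow or spleen cells, whether each library is a separate mouse, or how old the mice were, so p-values measure only the spread between these libraries.

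Library totals ran from 9292644 to 14340624 counts, and levels are given as CPM, the share of a library's counts on a scale set by TMM. The level that 0 counts would still allow (3 counts) was 0.207 to 0.337 CPM depending on the library, for counting error only. Kit, the sorted surface marker, was measured in every library, at 30.9 to 36.4 CPM in day 14 off, 88.9 to 98.1 in day 14 on, 40.3 to 43.3 in day 5 off and 51.3 to 56.2 in day 5 on. Itgam, which encodes Cd11b, read 2.07 to 3.73 CPM in day 14 off and 8.76 to 21.9 in day 14 on. In day 5 off it read 3.17 to 14.6 CPM and in day 5 on 3.08 to 6.74. Kit and Itgam were both lower in day 14 off than in day 14 on by edgeR's quasi-likelihood test. Kit was at -1.44 ± 0.12 (log2 and standard error, adjusted p = 4.78e-05) and Itgam at -2.28 ± 0.56 (adjusted p = 0.0121). Dnmt3a read 31.9 to 39.2 CPM in day 14 off and 55.9 to 73.6 in day 14 on. Its day 5 levels were 50.2 to 65.6 CPM off and 51.2 to 52.8 on. By the same test off over on was -0.90 ± 0.16 at day 14 (adjusted p = 0.00186) and 0.15 ± 0.19 at day 5 (adjusted p = 0.754). However, 3′ tags of the vector need not fall in the annotated gene, so these values do not check the labels. The 2 day 5 on libraries stood apart from each other for the genes described here. Of the 18 sterol enzymes 17 were lower in replicate 2 than in replicate 1. The same count was 4, 9 and 7 of 18 in day 14 off, day 14 on and day 5 off. The share of all genes lower in replicate 2 was not computed. Across the count table the 2 day 5 on libraries differed too. The chi-square of their counts per degree of freedom was 53.4, beside 7.91 to 53.6 over all pairs within a group. Summed sterol enzyme levels were 640 CPM in replicate 1, the highest of the 10 libraries, and 417 in replicate 2. Which of the 2 was unusual cannot be told. For the comparisons that use day 5 on, medians without each of these libraries are given with the results.

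SREBPs are transcription factors made as precursors in the endoplasmic reticulum membrane. When sterols are low, Scap carries the precursor to the Golgi, where it is cut and its active part goes to the nucleus. When sterols are plentiful, Insig proteins hold Scap and the precursor back. The product of Srebf2 acts mainly on cholesterol genes and that of Srebf1 mainly on fatty acid genes, although each can act on both. Dividing blood progenitors use both branches to build membranes, and the mevalonate steps also supply isoprenoids for protein prenylation, ubiquinone and dolichol.

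At day 14, 8 of 18 sterol enzyme transcripts were lower where DNMT3A R882H was off, while 7 of 8 fatty acid enzyme transcripts did not pass the test. Of the 33 genes, 12 fell and 1 rose in edgeR's quasi-likelihood test with Benjamini-Hochberg adjustment over all genes, at an adjusted p of 0.05. This is 39.4% of the 33, beside 31.8% called among all genes tested. By direction, 36.4% of the 33 fell beside a background of 14.9%, and 3.03% rose beside a background of 16.9%. The 33 were chosen with earlier results of these data known, so an excess over the background is not a test. The sterol enzymes that fell were 8 (Hmgcs1, Mvd, Fdps, Fdft1, Cyp51, Nsdhl, Hsd17b7 and Sc5d), and Acat2 rose. The largest falls were those of Elovl6, a fatty acid elongase, and of Hmgcs1, the synthase ahead of the mevalonate step, at -1.73 and -1.72 on the log2 scale. The calls of 7 genes (Hmgcs1, Mvd, Fdft1, Cyp51, Npc1, Srebf2 and Elovl6) held in all 16 alternative settings tried, and the count was 8 when either day 14 on library was left out. Of those 7 genes, Fdft1, Cyp51 and Npc1 have exons that overlap another counted gene. The 16 settings do not include the omission of such genes. In bulk libraries such as these, fewer cells of a type and less RNA per cell cannot be told apart.

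**Figure D1:**
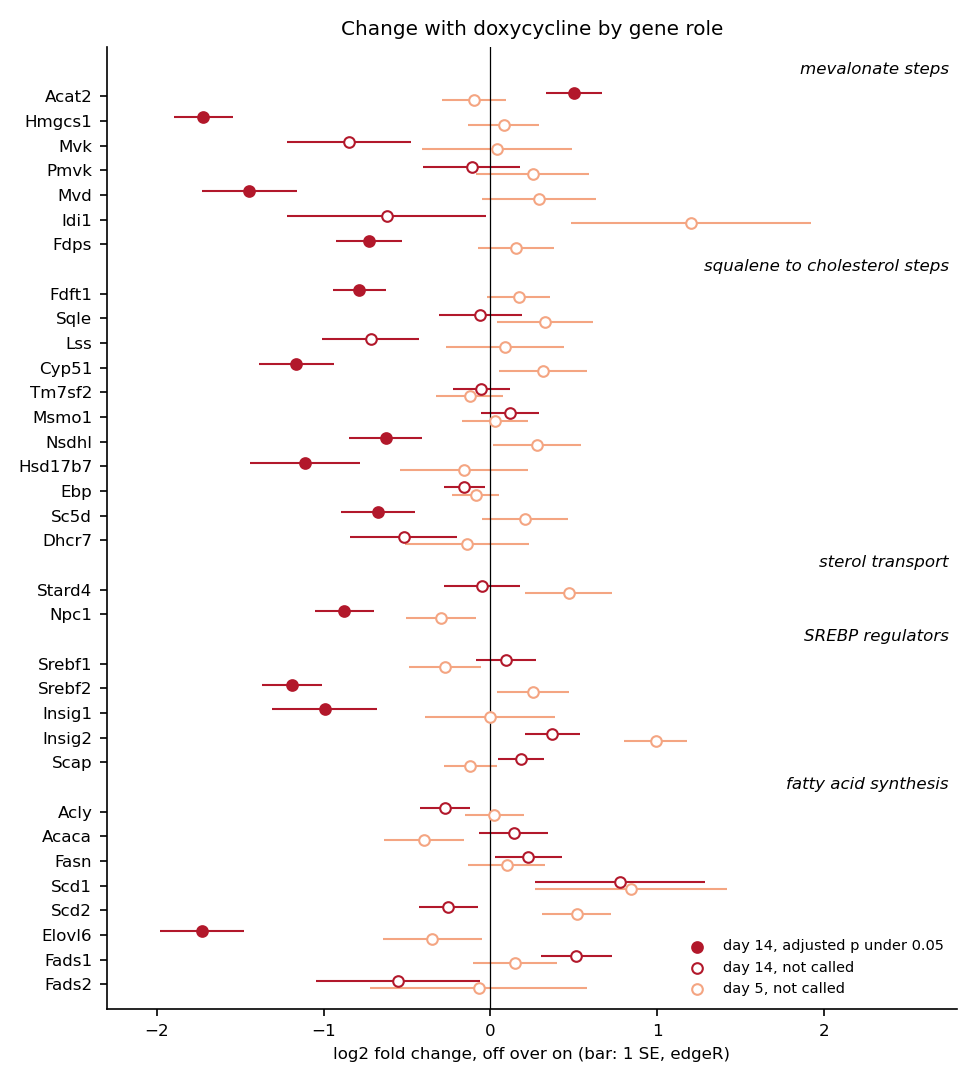
Log2 fold change of each of the 33 genes for off over on at day 14 and at day 5 (x axis, log2), in rows grouped by role, with bars of 1 standard error and filled points for called genes. At day 14, 16 of the 18 sterol enzymes lie to the left of 0, against 4 of the 8 fatty acid enzymes.

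The early steps turn acetyl-CoA into farnesyl diphosphate. Hmgcs1 (ENSMUSG00000093930, chr13:119690379-119708260 on the plus strand of mm10) makes HMG-CoA from acetoacetyl-CoA. It read 37.3, 47.3, 39.4 and 38.5 CPM in day 14 off replicates 1 to 4 and 132 and 136 in day 14 on, with 130.2 and 121 in day 5 off and 148 and 89.4 in day 5 on. All 4 day 14 off libraries lay below all 6 others, and day 5 on spanned the values of the other groups above them. The day 14 difference was -1.72 ± 0.18 (log2, standard error; adjusted p = 1.02e-04). Mvd (chr8:122433601-122443422, minus strand) decarboxylates mevalonate diphosphate. Its levels were 6.77, 8.42, 7.16 and 6.59 CPM in day 14 off, 21.8 and 17.8 in day 14 on, 15 and 12.2 in day 5 off and 15.8 and 6.53 in day 5 on. The day 14 groups did not overlap, the day 14 on libraries were the highest of the 10, and day 5 on replicate 2 was the lowest. Mvd fell by 1.45 ± 0.28 at day 14 (adjusted p = 0.00333).

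Fdps builds farnesyl diphosphate, the branch point to sterols and prenyl groups. It read 7.62, 7.91, 8.40 and 8.28 CPM in day 14 off, 12.9 and 13.8 in day 14 on, 15.3 and 15.8 in day 5 off and 17.3 and 10.8 in day 5 on. The day 14 off libraries were the 4 lowest, at -0.73 ± 0.20 against day 14 on (adjusted p = 0.0167). That call was lost without day 14 on replicate 2 (adjusted p = 0.0978), and the exons of Fdps share 1124 bases with the gene model Gm43738 on the same strand. Acat2, which condenses acetyl-CoA at the head of the route, went the other way. Its values were 54.6, 67.1, 50.6 and 58.6 CPM in day 14 off and 33.7 and 47.8 in day 14 on, with 46.3 and 51.8 in day 5 off and 53.7 and 51.4 in day 5 on. The day 14 groups did not overlap, but by a narrow margin, and the day 5 values overlapped both. Acat2 rose by 0.50 ± 0.17 (adjusted p = 0.0437), a call lost in 13 of 16 alternatives, among them the omission of any single library other than day 14 off replicate 3 or day 14 on replicate 2 (adjusted p up to 0.435). Mvk, Pmvk and Idi1, the mevalonate kinase, the phosphomevalonate kinase and the isopentenyl diphosphate isomerase, did not pass. Their day 14 differences were -0.85 ± 0.37, -0.11 ± 0.29 and -0.62 ± 0.60, and Idi1 ranged from 4.66 to 42.1 CPM over the 10 libraries.

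From squalene onward, 5 of 11 enzymes fell at day 14 and none rose, beside 14.9% of all genes lower and 16.9% higher. Fdft1, the squalene synthase, read 15.2, 14.1, 17.3 and 12.7 CPM in day 14 off, 26.7 and 24.4 in day 14 on, 21.7 and 23.9 in day 5 off and 21.6 and 19 in day 5 on. The day 14 off libraries were the 4 lowest and the day 14 on libraries the 2 highest. Its difference was -0.79 ± 0.16 (adjusted p = 0.00397). Cyp51 (ENSMUSG00000001467, chr5:4081145-4104746, minus strand), the lanosterol demethylase, read 26.9, 33.4, 33.7 and 25.3 CPM in day 14 off and 63.8 and 69.9 in day 14 on, then 79.7 and 70.4 in day 5 off and 79.4 and 41.3 in day 5 on. Again every day 14 off library lay below every other library, the nearest being day 5 on replicate 2. Cyp51 fell by 1.16 ± 0.22 (adjusted p = 0.00288). The exons of Fdft1 share 774 bases with Ctsb, and those of Cyp51 share 166 bases with Akap9, each on the opposite strand. As the strand setting of the counting is not given in the sources used here, reads in those bases cannot be assigned.

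Sc5d, the lathosterol oxidase, had 10.7, 12.6, 14.8 and 14.3 CPM in day 14 off, 22 and 19.8 in day 14 on, 25.3 and 23.6 in day 5 off and 27.1 and 15.4 in day 5 on. The day 14 off group was below all other libraries, by a small gap to day 5 on replicate 2, and its difference from day 14 on was -0.67 ± 0.22 (adjusted p = 0.0395). Hsd17b7, a sterol ketoreductase, read 5.25, 3.00, 2.82 and 2.16 CPM in day 14 off, 7.46 and 6.86 in day 14 on, 4.64 and 6.33 in day 5 off and 7.08 and 5.26 in day 5 on. The day 14 groups were apart and the day 5 values filled the gap, with a difference of -1.11 ± 0.33 (adjusted p = 0.0243). Nsdhl, which works with Msmo1 in removing methyl groups from the sterol ring, read 5.33, 5.34, 4.13 and 4.61 CPM in day 14 off, 7.98 and 7.04 in day 14 on, 4.54 and 5.44 in day 5 off and 4.27 and 3.98 in day 5 on. Here day 14 on was above all other libraries and day 14 off was level with day 5, at -0.63 ± 0.22 (adjusted p = 0.0477). These 3 calls were fragile. Sc5d lost its call without day 14 off replicate 1 or 2, either day 14 on library or day 5 off replicate 2 (adjusted p 0.0773, 0.0663, 0.157, 0.0939 and 0.0529). Hsd17b7 lost it without day 14 off replicate 2 or 4 or either day 14 on library (adjusted p 0.0523, 0.0504, 0.106 and 0.0787). Nsdhl lost it in 10 of 16 alternatives, among them the omission of any library outside day 5 on (adjusted p up to 0.221).

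The 6 remaining enzymes of this stretch did not pass at day 14. Lss, the lanosterol synthase, was at -0.72 ± 0.29 with groups that did not overlap (adjusted p = 0.0835), and Dhcr7, which makes cholesterol from its last precursor in this route, was at -0.52 ± 0.32. Sqle, the squalene epoxidase, and Tm7sf2, a sterol reductase, were at -0.06 ± 0.25 and -0.05 ± 0.17. Ebp, the sterol isomerase, was at -0.16 ± 0.12 and Msmo1 at 0.12 ± 0.17. Levels of these 6 genes over the 10 libraries ran from 2.63 to 7.23 CPM for Lss, 2.54 to 6.41 for Dhcr7, 7.88 to 14.9 for Sqle, 15.7 to 29.9 for Tm7sf2, about 40 to 56.9 for Ebp and 60.3 to 110.2 for Msmo1. The whole sterol route was uneven: day 14 log2 differences ran from -1.72 to 0.50 with a median of -0.65, beside a median of 0.01 over all genes tested.

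**Figure D2:**
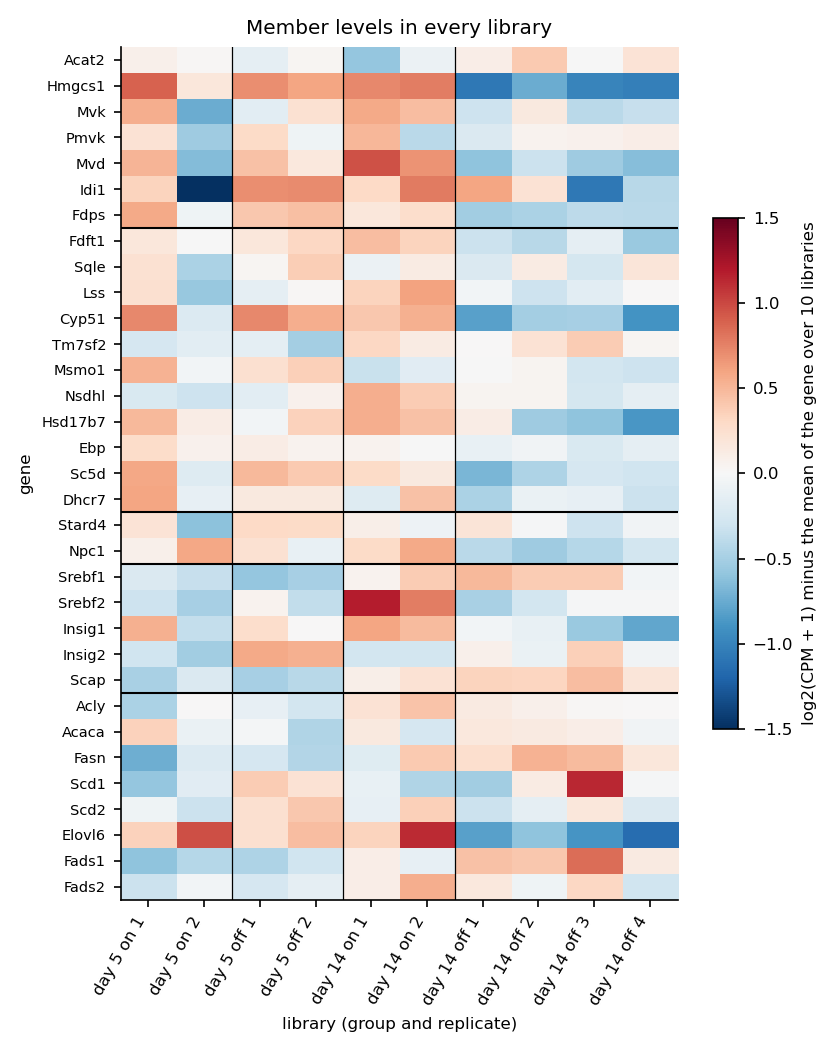
Level of each of the 33 genes (rows, grouped by role) in each of the 10 libraries (columns, grouped by day and treatment), as log2(CPM + 1) minus the gene's mean over the libraries, in a colour scale that ends at 1.5 in each direction. The 4 day 14 off columns are low for Hmgcs1, Cyp51 and Elovl6, and the second day 5 on column is low across most sterol enzymes.

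Npc1, which exports cholesterol from lysosomes, also fell. It read 21.5, 19.6, 21.3 and 23.7 CPM in day 14 off, 35.5 and 43.4 in day 14 on, 34 and 26.6 in day 5 off and 30.5 and 43.6 in day 5 on, so the day 14 off libraries were the 4 lowest. The difference was -0.87 ± 0.18 (adjusted p = 0.00393), with 511 exon bases shared with Rmc1 on the opposite strand. Stard4, a cytosolic sterol carrier, was at -0.05 ± 0.23 with overlapping groups and ranged from 14.3 to 27.8 CPM.

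Promoter sequence was examined because many of these genes moved together. RefSeq windows of 300 bases (250 before and 50 after the annotated start, build GRCm38.p6) were matched for 25 of the 33 genes. Both strands were searched for TCACNCCAC, a core of the sterol regulatory element, and for CCAAT, the box bound by NF-Y; in the windows printed here no match to one overlaps a match to the other. CCAAT was present for 14 of 15 sterol enzyme genes (93.3%), 4 of 5 regulators (80%) and 2 of 5 fatty acid genes (40%), beside 41.1% of all 27025 genes with a window. Some genes have more than 1 window and were counted if any of them matched. By window CCAAT was in 14 of 18 for sterol enzymes (77.8%), 5 of 10 for regulators (50%) and 2 of 5 for fatty acid genes (40%). Of all 32851 windows 37.4% held it. The sterol element core was present for Hmgcs1 alone among the 25 (4%), beside 1.44% of all genes. Windows of the 25 genes held 60.8% G and C on average and all windows 53.8%. A match is only a run of letters, and its absence says only that these letters are not in this window. Shown are the windows of the 3 sterol enzymes with the largest called falls and, for contrast, Fasn, a fatty acid gene that was not called at day 14; they run 5′ to 3′ along the gene with the matches in capitals (CCAAT, or ATTGG where the box is on the other strand).
Hmgcs1, chr13:119690101-119690400, plus strand: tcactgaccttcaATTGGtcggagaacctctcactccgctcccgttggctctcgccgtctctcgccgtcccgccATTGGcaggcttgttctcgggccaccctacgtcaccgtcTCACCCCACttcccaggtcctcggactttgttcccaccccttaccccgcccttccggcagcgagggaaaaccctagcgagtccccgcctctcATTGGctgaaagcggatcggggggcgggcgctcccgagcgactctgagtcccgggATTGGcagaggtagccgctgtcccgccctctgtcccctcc
Mvd, chr8:122443373-122443672, minus strand: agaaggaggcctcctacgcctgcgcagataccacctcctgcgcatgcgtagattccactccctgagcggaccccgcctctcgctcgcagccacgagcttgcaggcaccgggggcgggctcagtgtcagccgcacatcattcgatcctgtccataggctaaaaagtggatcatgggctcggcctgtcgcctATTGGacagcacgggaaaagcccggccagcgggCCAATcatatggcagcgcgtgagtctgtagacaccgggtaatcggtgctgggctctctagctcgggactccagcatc
Cyp51, chr5:4104648-4104947, minus strand: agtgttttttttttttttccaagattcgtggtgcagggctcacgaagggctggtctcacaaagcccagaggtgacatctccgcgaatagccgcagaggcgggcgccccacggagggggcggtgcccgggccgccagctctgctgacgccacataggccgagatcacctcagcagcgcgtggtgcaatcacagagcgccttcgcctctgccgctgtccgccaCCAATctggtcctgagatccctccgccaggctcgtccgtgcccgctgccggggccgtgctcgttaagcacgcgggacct
Fasn, chr11:120824498-120824797, minus strand: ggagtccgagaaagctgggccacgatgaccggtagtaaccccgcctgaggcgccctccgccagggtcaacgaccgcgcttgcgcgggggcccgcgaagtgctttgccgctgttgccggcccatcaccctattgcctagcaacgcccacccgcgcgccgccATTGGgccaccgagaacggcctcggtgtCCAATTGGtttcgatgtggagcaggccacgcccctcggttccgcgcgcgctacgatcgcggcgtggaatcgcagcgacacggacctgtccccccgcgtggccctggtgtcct
In the Hmgcs1 window the sterol element core TCACCCCAC starts 137 bases before the transcription start, between 4 CCAAT boxes. Mvd has 2 boxes, at 60 and 27 bases before the start, and Cyp51 has 1, at 29. Fasn has 3, of which the pair nearest the start overlaps as CCAATTGG. Of the 9 called-lower genes with a window 8 held CCAAT, and of the 16 others 12 did.

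Among the 5 regulators, Srebf2 and Insig1 fell at day 14, beside 14.9% of all genes, and the other 3 were not called. Srebf2 (ENSMUSG00000022463, chr15:82147181-82205379, plus strand) read 43.4, 50.4, 60.8 and 60.4 CPM in day 14 off and 140.0 and 105 in day 14 on, with 63.5 and 47.2 in day 5 off and 49.2 and 43.3 in day 5 on. Both day 14 on libraries lay above all others, while day 14 off overlapped both day 5 groups. Srebf2 fell by 1.19 ± 0.18 (adjusted p = 7.63e-04). The pattern thus differed from that of Hmgcs1, Cyp51 and Elovl6, whose day 14 off libraries were below all others. Of the 12 genes that fell, 7 had day 14 off below every other library. Day 14 on was above every other library in 4, with Fdft1 in both sets. These 12 were picked as lower in day 14 off than in day 14 on. The share of all genes with either pattern was not computed, so the counts are only a description. Insig1, itself a target of SREBPs and a brake on them, read 6.35, 6.00, 4.13 and 3.39 CPM in day 14 off, 10.4 and 9.48 in day 14 on, 8.04 and 6.57 in day 5 off and 9.89 and 4.88 in day 5 on. The day 14 groups were apart, and day 5 on replicate 2 fell within day 14 off. Its difference of -0.99 ± 0.32 (adjusted p = 0.0344) lost its call without day 14 off replicate 3 or 4 or either day 14 on library (adjusted p 0.0646, 0.0691, 0.135 and 0.0968).

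Srebf1 read 28.9, 26.9, 26.8 and 19.9 CPM in day 14 off, 21.1 and 26.8 in day 14 on, 13.3 and 14.1 in day 5 off and 17.4 and 15.8 in day 5 on. It separated the days rather than the treatments, with every day 14 library above every day 5 library and a day 14 treatment difference of 0.10 ± 0.18 (adjusted p = 0.722). Scap, the escort of both SREBPs, showed the same order, at 52.1, 51.8, 57.1 and 46.9 CPM in day 14 off, 43.8 and 47.8 in day 14 on, 28.8 and 30.7 in day 5 off and 29.1 and 35.4 in day 5 on. Its treatment difference at day 14 was 0.18 ± 0.14 (adjusted p = 0.344). Insig2, the second Insig gene, read 27.1, 23.9, 33.1 and 24.8 CPM in day 14 off, 21 and 21 in day 14 on, 38.5 and 37.7 in day 5 off and 20.7 and 17.6 in day 5 on. It was higher off than on at both days without overlap, at 0.37 ± 0.17 at day 14 (adjusted p = 0.111), which was not called. The exons of Srebf1 share 109 bases with Rai1 and those of Scap share 985 bases with 5830462I19Rik, both on the opposite strand.

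**Figure D3:**
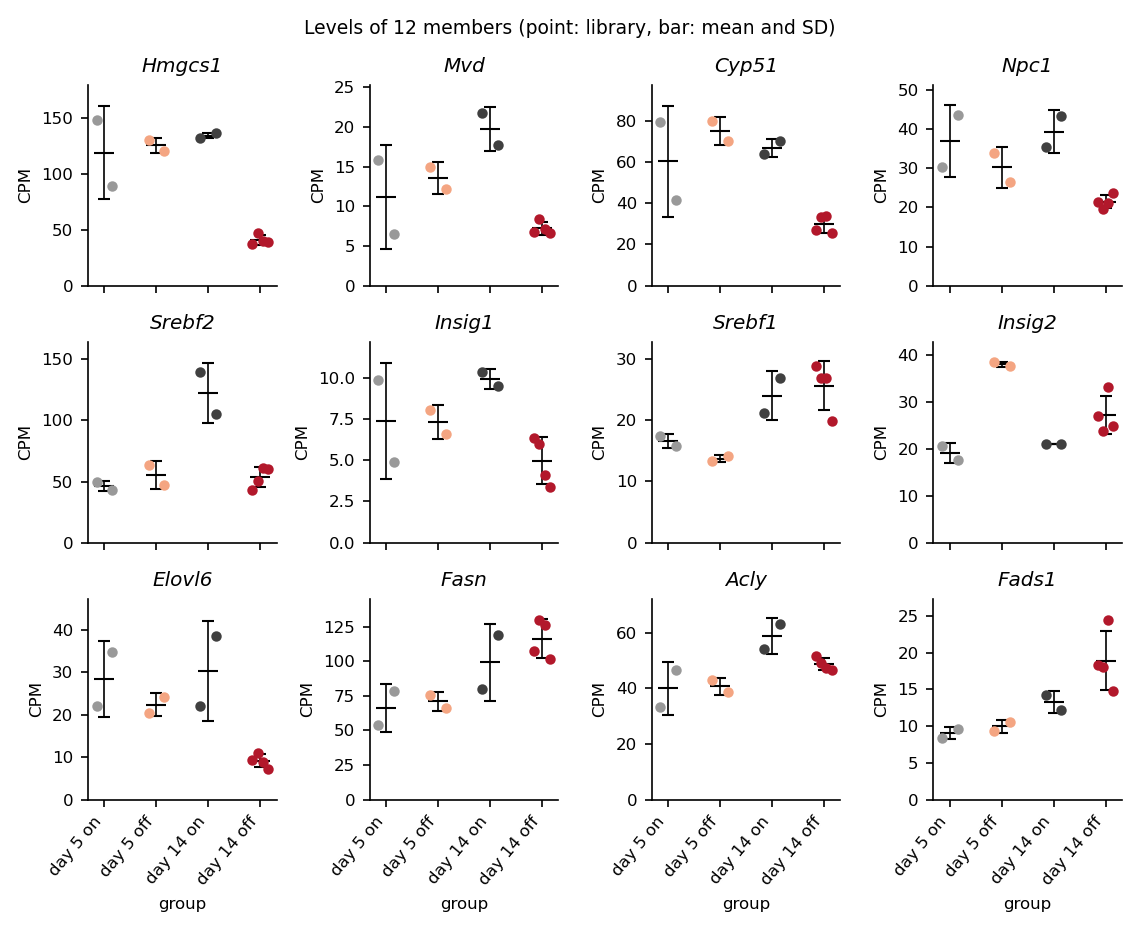
CPM of 12 genes (y axes, from 0) in each library (points) by group, with the group mean and SD as bars. Hmgcs1, Cyp51, Npc1 and Elovl6 are lowest in day 14 off, whereas Srebf2 stands out in day 14 on, where its libraries read 140.0 and 105 CPM.

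In the fatty acid branch, Elovl6 was the single called gene at day 14 (12.5% lower, near the 14.9% of all genes). Elovl6 (ENSMUSG00000041220, chr3:129532355-129638495, plus strand) lengthens palmitate to stearate. It read 9.40, 11, 8.88 and 7.25 CPM in day 14 off, 22 and 38.7 in day 14 on, 20.5 and 24.3 in day 5 off and 22.1 and 34.7 in day 5 on. Each day 14 off library lay below all 6 others, which overlapped among themselves. The difference was -1.73 ± 0.25 (adjusted p = 6.30e-04). Neither motif was in its promoter window.

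The enzymes ahead of Elovl6 gave no call. Acly, which makes cytosolic acetyl-CoA from citrate, read 51.5, 49.3, 47.4 and 46.8 CPM in day 14 off, 54.3 and 63.3 in day 14 on, 43 and 38.6 in day 5 off and 33.3 and 46.8 in day 5 on. Day 14 on was the highest group without overlap, and the day 14 difference had a 95% interval of -0.61 to 0.06 (log2). Acaca, the carboxylase that makes malonyl-CoA, read 15.7, 15.6, 15.1 and 13.6 CPM in day 14 off, 15.6 and 11.7 in day 14 on, 13.7 and 9.98 in day 5 off and 18.2 and 13.1 in day 5 on. Its groups overlapped in each of the 4 comparisons, and its interval was -0.32 to 0.60. Fasn (chr11:120805846-120824547, minus strand), the fatty acid synthase, read 108, 130.0, 126 and 101 CPM in day 14 off, 79.6 and 119 in day 14 on, 75.8 and 66.3 in day 5 off and 54 and 78.4 in day 5 on. It was higher at day 14 than at day 5 in every library, overlapped between treatments at day 14, and had an interval of -0.21 to 0.67.

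The desaturases come in neighbouring pairs on chromosome 19: Scd2 (chr19:44293674-44306864) beside Scd1 (chr19:44394455-44407879), and Fads2 (chr19:10062765-10101746) beside Fads1 (chr19:10182888-10196877). Scd1 and Scd2 put the first double bond into saturated chains. Scd1 read 2.03, 3.73, 8.47 and 3.29 CPM in day 14 off, 3.01 and 2.2 in day 14 on, 4.64 and 4.06 in day 5 off and 1.91 and 2.85 in day 5 on. Scd2 read 85.3, 97.6, 121 and 91.7 CPM in day 14 off, 97.9 and 137 in day 14 on, 126 and 142 in day 5 off and 102 and 85.6 in day 5 on. Day 14 groups overlapped for both, with intervals of -0.35 to 1.90 and -0.64 to 0.14. Fads1 and Fads2 desaturate polyunsaturated chains. Fads1 read 18.4, 18, 24.5 and 14.8 CPM in day 14 off, 14.3 and 12.2 in day 14 on, 9.38 and 10.6 in day 5 off and 8.43 and 9.61 in day 5 on. Its groups did not overlap at day 14, where it was higher off than on with an interval of 0.05 to 0.99 and an adjusted p of 0.0882, so it was not called. Fads2 was near the detection limit, at 1.02, 0.732, 1.24 and 0.471 CPM in day 14 off, 0.933 and 1.63 in day 14 on, 0.516 and 0.649 in day 5 off and 0.450 and 0.751 in day 5 on, and its interval of -1.64 to 0.53 allows a change of either sign. A p that misses the threshold does not show that these 7 genes were level.

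Side by side, the branches gave different medians at day 14. The median log2 difference was -0.65 over 18 sterol enzymes and -0.06 over 8 fatty acid enzymes, a gap of -0.59, beside 0.01 over all genes. Of the sterol enzymes 8 fell and 1 rose, and 1 fatty acid enzyme fell, beside 14.9% of all genes lower and 16.9% higher. Without day 14 on replicate 1 the medians were -0.78 and -0.23. Day 14 groups did not overlap, with off lower, for 11 of 18 sterol enzymes and 2 of 8 fatty acid enzymes, beside 24.6% of all genes. Summed over its enzymes, the sterol branch was at 377 ± 28.7 CPM (SD, n = 4) in day 14 off, 555 ± 17.1 (n = 2) in day 14 on, 580 ± 6.76 (n = 2) in day 5 off and 528 ± 157 (n = 2) in day 5 on. Day 14 off spanned 354 to 416 CPM, below all 6 other libraries, of which day 5 on replicate 2 was the nearest at 417. Fatty acid sums were 312 ± 33.6, 337 ± 69.5, 295 ± 2.26 and 256 ± 22.4 CPM in the same groups and overlapped at day 14. Single genes weigh heavily in such sums. Without Hmgcs1 the sterol sum was 316 to 369 CPM in day 14 off and 410 and 431 in day 14 on, still apart, while day 5 on replicate 2, at 328, fell within day 14 off.

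**Figure D4:**
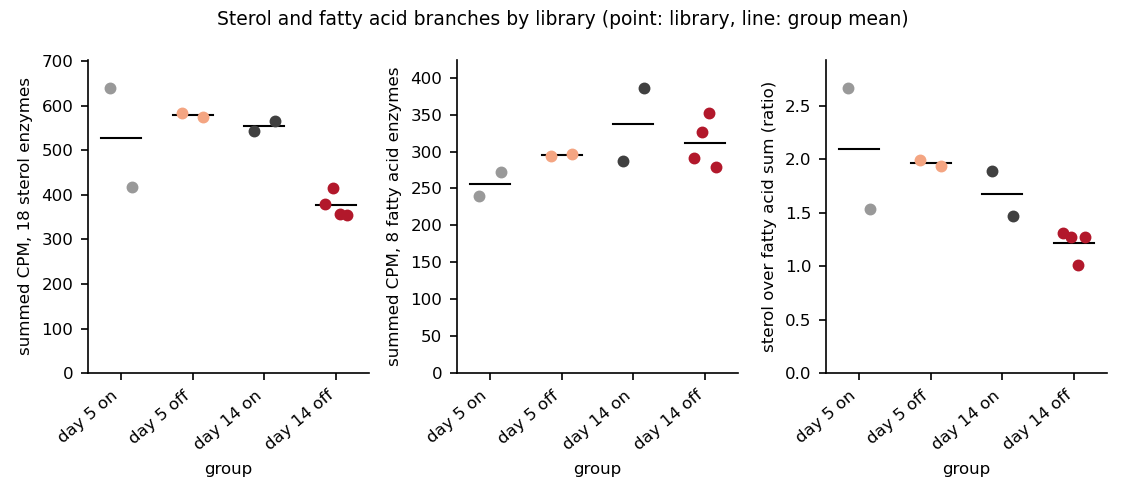
Summed CPM of the 18 sterol enzymes, of the 8 fatty acid enzymes and their ratio (y axes, from 0) in each library (points), with group means as lines. Sterol sums of 354 to 416 CPM set the 4 day 14 off libraries below the rest, and the 2 day 5 on libraries lie far apart at 640 and 417 CPM.

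Markers of other cell states, on lists also chosen with earlier results known, differed in the same contrast. Of 13 red cell precursor markers 11 were higher in day 14 off (84.6%, beside 16.9% of all genes), with summed levels of 2186 to 2307 CPM in day 14 off, 72.6 to 98.5 in day 14 on, 169 and 625 in day 5 off and 39.9 to 73.4 in day 5 on. The 2 day 5 off libraries differed in that sum, but both stayed below day 14 off. Their sterol sums were 585 and 575 CPM, and a link between these sums was not tested. Of 12 tested granulocyte markers 5 were lower in day 14 off (692 to 1011 CPM against 1102 to 1992), and of 10 tested monocyte markers 4 were lower (87.4 to 104 CPM against 155 to 334), beside 14.9% of all genes lower. None of the genes on these 3 lists was at 0 in every library of a day 14 group. On the other marker lists, 0 of 5 tested B cell, 0 of 5 dendritic, 1 of 4 mast cell, 2 of 5 megakaryocyte, 3 of 7 T and NK cell and 2 of 3 stroma and endothelium markers were called in either direction, beside 31.8% of all genes, with numbers too small to set most of these lists apart from that share; Fcer1a was at 0 in both day 14 groups, and Cdh5 was at 0 in day 14 on. Of 14 DNA replication genes 12 were higher (1757 to 2114 CPM against 868 to 953). Their part in the fall of the sterol genes was not tested.

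After 5 days, no gene of the 33 was called between off and on. The background was 0.484% of all genes by edgeR's quasi-likelihood test, and 2 of the 33 (Insig2 and Scd2) had an unadjusted p under 0.05. The share of all genes under that unadjusted cut was not computed. DESeq2 called 1, Insig2. That gene came closest in edgeR, at 0.99 ± 0.19 (adjusted p = 0.0519), with 38.5 and 37.7 CPM in day 5 off and 20.7 and 17.6 in day 5 on. It was called in 5 of 16 alternatives: without day 5 on replicate 1 (adjusted p = 0.0469), by DESeq2 (adjusted p = 7.34e-04), with RLE scaling (adjusted p = 0.0481), with no filter (adjusted p = 0.00289) and with the replicate block (adjusted p = 0.0328). With no filter Idi1 was called too, higher in off (adjusted p = 6.85e-05). Hmgcs1, the strongest sterol gene at day 14, was at 0.08 ± 0.21 with overlapping groups, Srebf2 at 0.26 ± 0.22 and Elovl6 at -0.35 ± 0.30. Medians were 0.12 over the sterol enzymes and 0.06 over the fatty acid enzymes, but they rested on single libraries. They were 0.48 and -0.17 without day 5 on replicate 1, and -0.12 and 0.37 without day 5 on replicate 2. The wide gap between the 2 day 5 on libraries, 148 and 89.4 CPM for Hmgcs1 and 30.7 and 4.66 for Idi1, limits what could be detected here.

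Between day 5 and day 14 off, 10 of the 33 genes changed, beside 17.0% of all genes. Sterol enzymes fell: Hmgcs1 was at -1.63 ± 0.18, Cyp51 at -1.33 ± 0.22, Fdps at -0.95 ± 0.19, Sc5d at -0.90 ± 0.22 and Fdft1 at -0.62 ± 0.16 (log2). The elongase Elovl6 fell as well, at -1.29 ± 0.26. These 6 falls (18.2% of the 33) stand beside a background of 6.94%. The genes that rose were 2 regulators, Srebf1 at 0.90 ± 0.19 and Scap at 0.81 ± 0.14, and 2 fatty acid enzymes, Fads1 at 0.92 ± 0.22 and Fasn at 0.71 ± 0.20. These 4 rises (12.1%) were close to the background of 10.1%. The median was -0.47 over the sterol enzymes and 0.30 over the fatty acid enzymes, the latter 0.16 without day 5 off replicate 2. This comparison shares the day 14 off libraries with the treatment comparison at day 14, so the falls are not independent of the falls there. The count was 3 without either day 5 off library and 14 without either day 5 on library. Fdps, Sc5d, Fdft1, Srebf1, Fads1 and Fasn lost their calls without either day 5 off library, Scap without replicate 1 of that group (0.0771, adjusted p) and Elovl6 without replicate 2 (0.0623). The other adjusted p values were 0.0613 and 0.0585 for Fdps, 0.113 and 0.0572 for Srebf1 and 0.164 and 0.0715 for Fads1, without replicate 1 or 2 of day 5 off. Fdft1 also lost its call without day 14 off replicate 1, 2 or 4 (adjusted p 0.0519, 0.0575 and 0.0531). The count was 5 among the 26 genes outside the 7 whose exons overlap another counted gene. Cyp51 is among those 7. Only Hmgcs1 and Cyp51 held their calls in all 16 alternatives, and Fasn lost its call when any single off library was left out.

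Where DNMT3A R882H stayed on, 1 gene changed between the days, beside 2.32% of all genes (0.968% higher). Srebf2 rose by 1.41 ± 0.22 (adjusted p = 0.0207), from 49.2 and 43.3 CPM at day 5 to 140.0 and 105 at day 14. The call was lost without day 14 on replicate 1 (adjusted p = 0.162) and when the fit held the compared groups alone (adjusted p = 0.408). The count was 2 without either day 5 on library, with Mvd added when replicate 1 was left out and Acly when replicate 2 was. Hmgcs1 was at 0.18 ± 0.21 and Elovl6 at 0.09 ± 0.30, neither called. Medians were 0.20 over the sterol enzymes and 0.44 over the fatty acid enzymes, of which none was called. The sterol median was 0.50 without day 5 on replicate 1 and -0.09 without day 5 on replicate 2, and the fatty acid median was 0.29 without day 14 on replicate 2.

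The test of whether the treatment difference itself changed between days called 3 of the 33 genes, all more negative at day 14, beside 3.06% of all genes (1.41% in that direction). They were Hmgcs1 at -1.80 ± 0.28 (adjusted p = 0.0125), Srebf2 at -1.45 ± 0.29 (adjusted p = 0.0301) and Cyp51 at -1.48 ± 0.35 (adjusted p = 0.0488). Hmgcs1 held its call in all 15 alternatives. Cyp51 kept it in 6 of 15, losing it without any single library other than day 5 on replicate 1, and Srebf2 kept it in 9 of 15, losing it without day 14 off replicates 1, 2 or 4, day 14 on replicate 1, day 5 off replicate 1 or day 5 on replicate 2 (adjusted p up to 0.164 for Cyp51 and 0.120 for Srebf2). The count ran from 1, without each of the 6 libraries named for Srebf2, to 7 without day 5 on replicate 1. Medians were -0.88 over the sterol enzymes, of which 15 of 18 were negative, and -0.18 over the fatty acid enzymes. Without day 5 on replicate 2 the medians were -0.49 and -0.53, so the branches did not separate, and without day 5 on replicate 1 they were -1.13 and 0.03. The fatty acid median also moved to -0.47 without day 14 off replicate 3 and to -0.30 without day 14 on replicate 1, and towards 0, at most to -0.10, without day 14 off replicate 1, day 14 on replicate 2 or day 5 off replicate 1.

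Genes around the pathway were called in both directions at day 14, and those named are among the called genes of smallest p in their list. The counts are to be read beside 16.9% of all genes higher and 14.9% lower, and several lists, such as SREBP processing (11.1% higher) and fatty acid oxidation (20% higher, 6.67% lower), were near those shares. Of 9 genes for SREBP processing and sterol-regulated degradation 1 rose and none fell. Of 14 users of isoprenoids 4 rose and none fell, among them Rabggtb, a subunit of the Rab prenyl transferase, at 1.05 ± 0.14, and Pdss1, which makes the ubiquinone tail, at 0.90 ± 0.24. Among 7 tested efflux and LXR genes Lpcat3, a phospholipid acyltransferase, rose by 0.88 ± 0.16 and 2 fell, among them Smpdl3a at -1.21 ± 0.23. Of 15 tested trafficking, storage and uptake genes 3 rose and 4 fell, among them Nceh1, a cholesteryl ester hydrolase, at -1.35 ± 0.19. In fatty acid supply, elongation and esterification 6 of 20 tested genes rose and 3 fell, with the acyl-CoA synthetases Acsl5 at 1.37 ± 0.14 and Acsl1 at 1.99 ± 0.29. Of 15 fatty acid oxidation genes 3 rose, among them Cpt2, an importer of acyl chains into mitochondria, at 1.05 ± 0.19 and Etfb, an electron carrier subunit, at 0.68 ± 0.12, and 1 fell.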

How the data were processed

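Polyadenylated RNA of sorted DIN progenitors was sequenced from transcript 3′ ends in 10 libraries, with a QuantSeq 3′ kit and single-end reads on a NextSeq500, per the labels' protocols. The deposited values are unnormalised whole-number counts for each Ensembl gene. Per the submitters' processing notes, the tools were HISAT2 2.0.4, Subread 2.0.0 with featureCounts, cutadapt 1.14, limma 3.48.3 and edgeR 3.34.0, with mm10 as build. No source used here gives the strand setting, the treatment of multi-mapped reads or the annotation release, so the counts of 7 genes whose exons overlap a gene with at least 25% of their counts cannot be fully assigned. Symbols and positions came from GENCODE M21 (52403 of 52636 IDs matched), and promoter windows from RefSeq on GRCm38.p6.

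Counts were fitted in R 4.3.3 with edgeR 4.0.16 (filterByExpr, TMM, robust quasi-likelihood test, 4 group means, 5 comparisons, Benjamini-Hochberg over 15916 genes, called at 0.05), and standard errors came from the F statistic. The fit was tested on simulated data. Alternatives were RLE scaling, no filter, a filter of 5 CPM in 2 libraries, DESeq2 1.42.0, the replicate number as a block, the compared groups alone, omission of each library, and omission of the overlapping genes. Values in every library are given for called genes, regulators and fatty acid enzymes, and other members by range. From each neighbouring pathway list the 2 called genes of smallest p are named, apart from some that are not reported here. The members and all lists were chosen with earlier results of these data known, so no test was made over a list. Replicates were compared before averaging: the chi-square of their counts per degree of freedom was 7.91 to 53.6, so no pair differed by counting error alone. This cannot tell whether libraries come from separate animals or from separate preparations of the same cells.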

Additional observations from a re-analysis of the deposited data

Results flagged for a closer look

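The difference between off and on changed between day 5 and day 14 for 3 genes in edgeR's quasi-likelihood interaction test. The change was -1.80 for Hmgcs1, -1.48 for Cyp51 and -1.45 for Srebf2 (log2, day 14 minus day 5), and only that of Hmgcs1 passed in all 15 alternatives. Among the 4 day 14 off libraries, 1 value lay far from the others for 2 of 33 genes, where chance flags about 1 in 20 such groups. For Mvk replicate 2 was high (3.89, 5.71, 3.58 and 3.76 CPM), with a gap to the nearest value of 0.852 of the range. For Pmvk replicate 1 was low (11.2, 13.7, 13.8 and 14.1 CPM), with a gap of 0.855 of the range.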

How the results depend on the processing

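Main counts of called genes were 13 at day 14, 0 at day 5, 1 between days on, 10 between days off and 3 for the interaction. With no filter they became 2 at day 5, 2 between days on and 7 for the interaction. The called share of all genes rose as well, from 0.484%, 2.32% and 3.06% to 3.42%, 4.40% and 6.75%. RLE scaling and DESeq2 each gave 1 at day 5. RLE scaling called 0.597% of all genes there, and DESeq2 2.92% of the genes to which it gave an adjusted p. DESeq2 gave 6 for the interaction, where it called 8.26% of the genes with an adjusted p. With the compared groups alone the count between days on was 0, as was that over all genes. Without the genes that overlap another gene the count between days off was 5. At day 14 this omission took out the calls of Fdps, Fdft1, Cyp51 and Npc1. Leaving out each library gave 8 to 14 at day 14, 0 to 1 at day 5, 0 to 2 between days on, 3 to 14 between days off and 1 to 7 for the interaction. The gap between branch medians at day 14, -0.59, ran from -0.65 to -0.54. No called value changed sign. The causes of these shifts were not tested.

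Replicate numbers are not stated to pair libraries. Deviations from the group mean correlated at 0.0295 to 0.334 over 12 pairs of same-numbered libraries and at -0.334 to 0.185 for others. In a group of 2 these deviations are exact opposites, so the 2 ranges are not independent. With the number as a block the counts were 10 at day 14, 1 at day 5 and 1 between days on. Between days off the count was 11 and for the interaction 5, and the branch gap was -0.56. In the same order 32.6%, 1.41%, 6.37%, 19.05% and 9.56% of all genes were called. At day 14 the block ended the calls of Hsd17b7 (-0.82, adjusted p = 0.0953), Insig1 (-0.68, adjusted p = 0.103) and Nsdhl (-0.49, adjusted p = 0.194) in edgeR's test. Groups of 2 libraries and the low counts of Fads2, Scd1 and Dhcr7 limit precision.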

Other observations

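Between day 5 off and day 14 off, calls in lists around the pathway were counted as well. Of 20 tested genes of fatty acid supply, elongation and esterification 5 rose and 1 fell, and of 15 fatty acid oxidation genes 2 rose. Of 14 isoprenoid users 3 rose and 1 fell, and of 7 tested efflux and LXR genes 2 rose. Over all genes 10.1% rose and 6.94% fell, so fatty acid oxidation, at 13.3% higher, was near that share.

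Sterol enzymes were mostly lower in day 5 on replicate 2 than in replicate 1, whereas 2 of 8 fatty acid enzymes were lower there. That share over all genes was not computed. For Idi1 the 2 libraries read 30.7 and 4.66 CPM, for Mvk 7.87 and 2.63 and for Mvd 15.8 and 6.53, whereas Elovl6 read 22.1 and 34.7 and Fasn 54 and 78.4. The sum of DNA replication genes was 897 CPM in replicate 1 and 1283 in replicate 2, and that of monocyte markers was 236 and 94.2. Their part in the gap was not tested.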
